A study of Homo sapiens with 2 samples.

Results

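The genes examined here encode the SR and hnRNP splicing proteins. They were taken by symbol from the deposited gene table, as every protein-coding row named SRSF followed by a number or HNRNP followed by letters and digits. The rule gave 38 genes of 58302 in the table, 12 of them SRSF and 26 HNRNP. The samples were 2 cultures of HL60-EIF2S3 cells, HL60 being an established human promyelocytic leukemia line that here carries an EIF2S3 transgene under a Retro-X Tet-Off system, in which doxycycline (DOX) shuts the transgene off. One culture, labelled DOX(-), had no DOX and so has the transgene on. The other, labelled DOX(+), was treated with DOX and has it off. Both carry the transgene construct, each condition is 1 RNA-seq library, and an effect of the transgene and an effect of DOX itself cannot be told apart.

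SR proteins bind RNA through RNA recognition motifs and carry a tail rich in arginine and serine, which SRPK and CLK kinases phosphorylate. Bound to exonic enhancers, they help the spliceosome define an exon. The hnRNP proteins coat nascent transcripts and often act against SR proteins at the same exons, and many members of both families hold down their own mRNA by splicing in an exon that sends it to nonsense-mediated decay. In GENCODE release 29 all 12 SRSF genes and 13 of the 26 HNRNP genes have an annotated decay transcript. The deposited table gives 1 total per gene, so such isoforms were not told apart here.

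The 2 libraries held 16577632 fragments for DOX(-) and 18521226 for DOX(+), as recovered from the values. Levels are in FPKM, fragments per kilobase of transcript, scaled to library depth. Ratios are DOX(-) over DOX(+), log2 ratios are of FPKM + 1, and a difference is counted where it reaches 1.5-fold on that scale. With 1 library per condition there is no spread between cultures and no test. The 95% counting interval of a ratio covers counting error only. For single genes it rests on the shortest annotated transcript, the choice with the fewest fragments and the widest interval, unless stated. EIF2S3 itself stood at 132.9 FPKM in DOX(-) against 126.2 in DOX(+), a ratio of 1.05 with an interval of 0.927 to 1.196, so the higher level given by the label was not seen, and the libraries are named by their labels. Of 6 promyelocyte genes, ELANE, AZU1, PRTN3, CTSG and CD33 were well expressed, while MPO, a defining enzyme of the stage, was at 0.274 FPKM in DOX(-) against 0.469 in DOX(+). The 6 summed to 1348 FPKM in DOX(-) against 1075 in DOX(+). Of 12 markers of other cell types, 10 were below 1 FPKM in both libraries, 7 of them at 0, and the 12 summed to 12.4 FPKM in DOX(-) against 15.6 in DOX(+). The exceptions were the endothelial marker PECAM1, at 10.8 FPKM in DOX(-) against 11.8 in DOX(+), and the erythroid marker HBA1. HBA1 was at 1.33 FPKM in DOX(-) against 3.36 in DOX(+), with an interval of 0.159 to 0.852 for the ratio. The part of these differences in the results was not tested.

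Of the 38 genes, 33 reached 1 FPKM in at least 1 library and none of these differed 1.5-fold. Among 9283 protein-coding genes that passed the same filter, 2.36% were 1.5-fold higher in DOX(-) and 2.98% were 1.5-fold lower, and among the 4850 with a mean of 5 FPKM or more the shares were 2.04% and 2.37%. A count of 0 in 33 lies near that background. At a smaller size, 5 to 4 or more on the same scale of FPKM + 1, 0 members were higher, beside 8.12% of protein-coding genes and 8.08% of those with the higher mean. At that size 3 members (9.09%) were lower, beside 11.1% and 9.77% of the same sets, and all 3 were SRSF genes. In plain FPKM the ratios of HNRNPCL1, 1.27, and SRSF10, 0.784, also passed 5 to 4. The share of all genes was not counted in plain FPKM. The median log2 ratio was -0.14 over the 33 members, -0.18 over 11 SRSF genes and -0.11 over 22 HNRNP genes, beside -0.02 over all 11525 genes tested. Of the 33 members 20 (60.6%) had a log2 ratio below 0, beside 54.1% of protein-coding genes and 51.9% of those with a mean of 5 FPKM or more. The SRSF values spread more widely, between -0.57 and 0.28, than the HNRNP values, between -0.27 and 0.31. In bulk RNA, a smaller number of cells expressing a gene and less of its RNA per cell cannot be told apart.

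**Figure D1:**
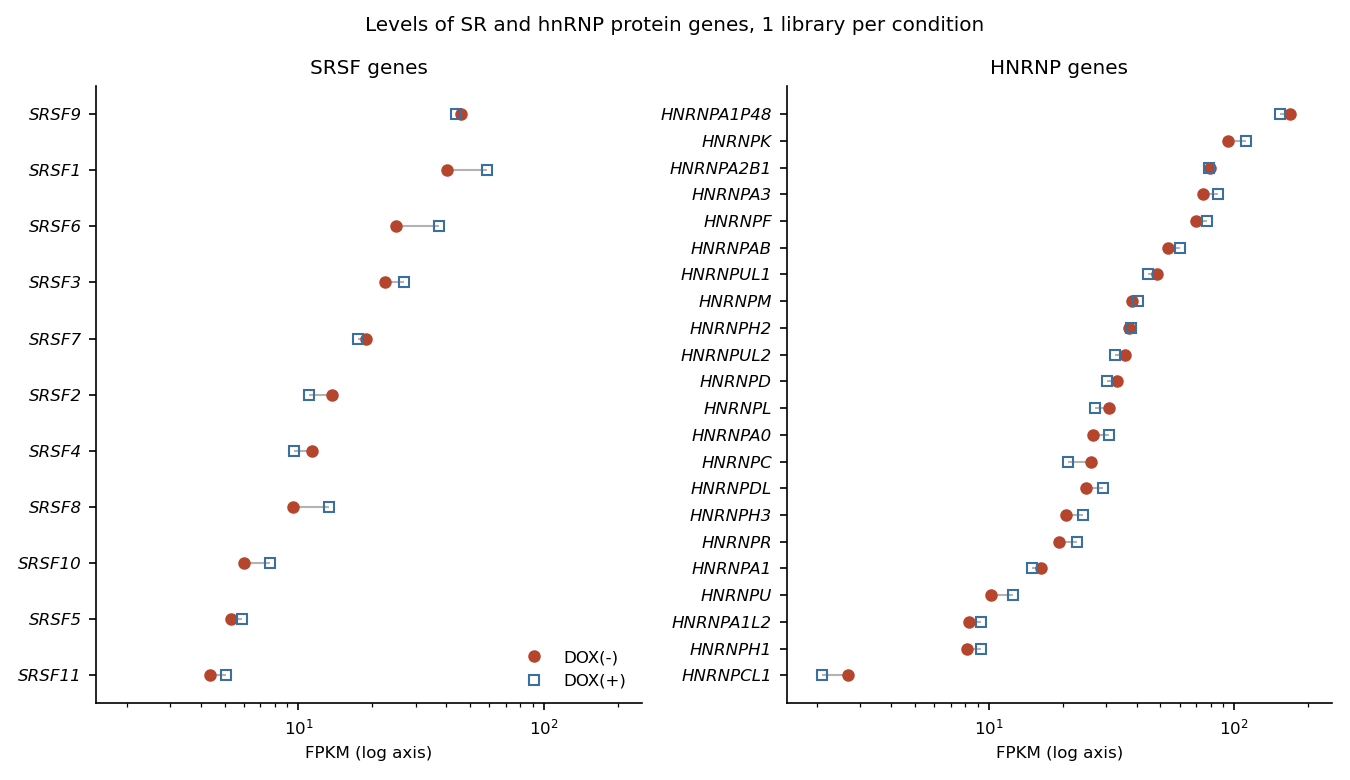
Level of each SRSF gene (left) and HNRNP gene (right) that reached 1 FPKM, on a log axis in FPKM, with DOX(-) as filled circles and DOX(+) as open squares, 1 library each. SRSF levels ran between 4.37 and 45.8 FPKM in DOX(-), and the paired symbols lie farthest apart for SRSF1, SRSF6 and SRSF8.

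Among the SRSF genes the largest difference was that of SRSF6, one of the SR proteins with a pair of RNA recognition motifs. The gene (ENSG00000124193, chromosome 20, 43457928 to 43464247, plus strand, GRCh38) was at 24.9 FPKM in DOX(-) against 37.3 in DOX(+). Its log2 ratio of -0.57 fell just short of 1.5-fold, whereas its plain FPKM was 1.501 times as high in DOX(+). The ratio of 0.666 had a counting interval of 0.606 to 0.733, so the DOX(-) level was lower beyond counting error. SRSF6 has no exon shared with another listed gene.

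SRSF1, the founding SR protein and a known oncogene product, showed nearly the same difference. The gene (ENSG00000136450, chromosome 17, 58003360 to 58007346, minus strand) was at 40.4 FPKM in DOX(-) against 58.4 in DOX(+), a log2 ratio of -0.52. Its ratio was 0.692, with an interval of 0.595 to 0.801. SRSF1 was thereby below SRSF9 in DOX(-) and above it in DOX(+). AC015813.2 shares exon sequence with SRSF1 on the same strand and stood at only 1.10 FPKM in DOX(-) against 0.683 in DOX(+).

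SRSF8, an SR gene that arose as a retrotransposed copy related to SRSF2, was at 9.47 FPKM in DOX(-) against 13.3 in DOX(+). The log2 ratio was -0.45 and the interval of the ratio, 0.539 to 0.938, lay below 1. These 3 were the SRSF genes whose counting interval on the shortest transcript left out equal levels.

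The other SRSF genes had counting intervals on the shortest transcript that included 1. On the longest transcript the intervals of SRSF10, 0.687 to 0.894, and SRSF3, 0.782 to 0.893, left out 1, and those of SRSF11 and SRSF5 did not. SRSF10, which represses splicing when dephosphorylated, was at 5.99 FPKM in DOX(-) against 7.64 in DOX(+). SRSF3, the smallest SR protein and an adaptor of mRNA export, was at 22.4 FPKM in DOX(-) against 26.9 in DOX(+), with an interval of 0.691 to 1.003 that only just reached equal levels. SRSF11 was at 4.37 FPKM in DOX(-) against 5.08 in DOX(+), the lowest levels of any tested SRSF gene. All 3 were lower in DOX(-) by less than 1.5-fold, as was SRSF5, at 5.30 FPKM in DOX(-) against 5.89 in DOX(+).

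The remaining 4 tested SRSF genes had ratios above 1, with intervals on the shortest transcript that included 1. On the longest transcript the intervals of SRSF2, 1.10 to 1.38, and SRSF4, 1.10 to 1.27, left out 1, and those of SRSF7 and SRSF9 did not. SRSF2, the SR protein recurrently mutated in myeloid neoplasms, was at 13.7 FPKM in DOX(-) against 11.1 in DOX(+), with an interval of 0.951 to 1.602. SRSF4 was at 11.3 FPKM in DOX(-) against 9.57 in DOX(+). SRSF2 and its derived relative SRSF8 thus had ratios on opposite sides of 1. SRSF7, an export adaptor with a zinc knuckle, was at 18.8 FPKM in DOX(-) against 17.5 in DOX(+). SRSF9 was at 45.8 FPKM in DOX(-) against 43.7 in DOX(+), so these last genes were nearly level. SRSF12 was listed at 0 in both libraries, where 3 fragments on its shortest transcript would have been 0.319 FPKM in DOX(-).

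**Figure D2:**
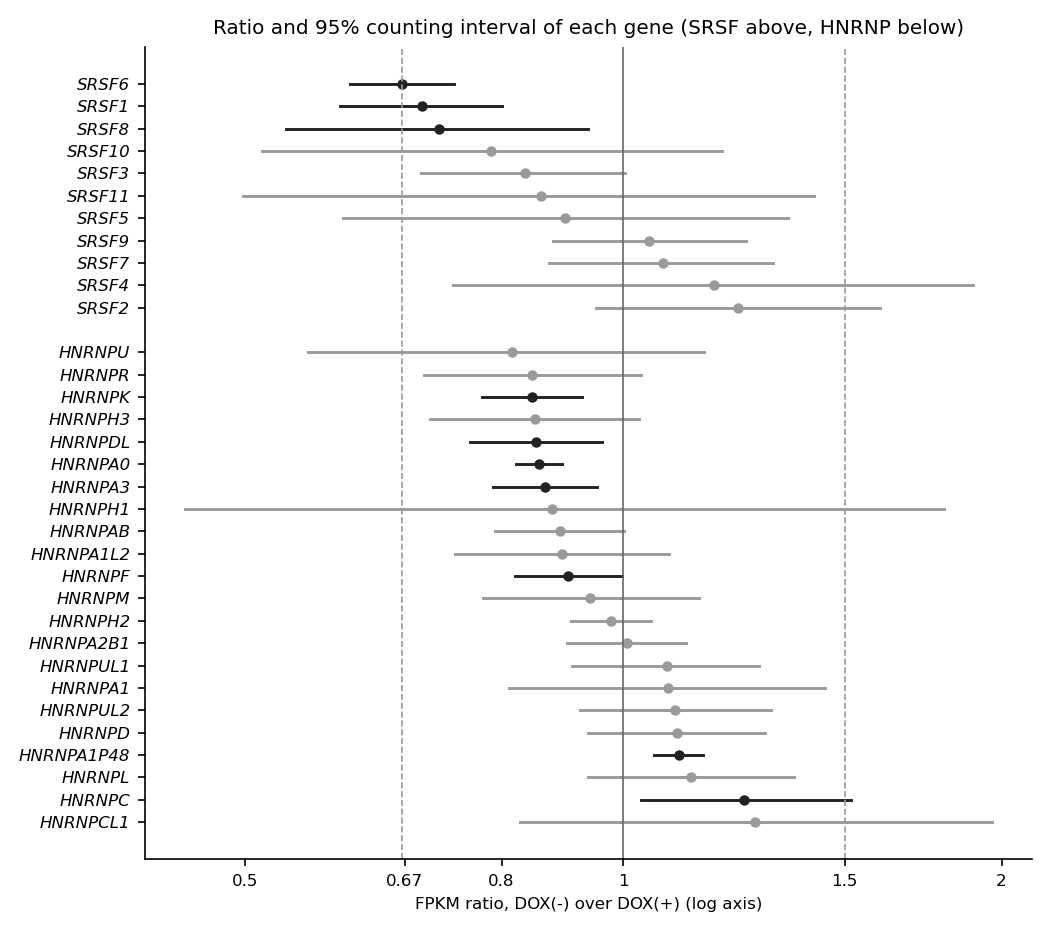
Plain FPKM ratio of each tested gene, DOX(-) over DOX(+), on a log axis with its 95% counting interval as a line, SRSF genes above and HNRNP genes below. Dark symbols mark the 10 genes whose interval on the shortest transcript leaves out 1. The dashed lines mark 1.5-fold by plain FPKM, which SRSF6 alone touches at 0.666.

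In all, 8 members had an interval below 1 and 2 an interval above 1. As shares of the 33 these are 24.2% and 6.06%, beside 8.17% and 6.61% of tested protein-coding genes, and 11.2% and 10.1% of those with a mean of 5 FPKM or more. The intervals rest on the shortest annotated transcript of each gene, the choice that gives the fewest fragments. Interval width therefore differs between genes, and these shares are a description only.

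Some splicing genes are known MYC targets. The promoters of the 34 members found in the RefSeq table were therefore scanned for the E-box CACGTG, a motif MYC binds. Only this form was counted, and other sequences that MYC may bind were not scanned. HNRNPA1, HNRNPA1P48, HNRNPCL3 and SRSF2 had no promoter in that table and were not scanned. MYC was at 29.5 FPKM in DOX(-) against 2.06 in DOX(+), a ratio of 14.3 with an interval of 8.27 to 27.8. Of 5 splicing genes that MYC is known to raise, 0 were 1.5-fold higher or lower and the median log2 ratio was 0.01. SRSF1 and PTBP1 were below 0, at -0.52 and -0.27, and HNRNPA2B1, PRMT5 and HNRNPA1 above it, at 0.01, 0.06 and 0.11. The E-box, CACGTG, reads the same on both strands, and the window ran from 250 bases before to 50 after each RefSeq start. Its letters were in 7 of 23 HNRNP genes (HNRNPA3, HNRNPD, HNRNPDL, HNRNPH2, HNRNPH3, HNRNPM and HNRNPUL1) and 0 of 11 SRSF genes matched, beside 8.77% of all 27305 genes of the promoter table. The log2 ratios of the 7 lay between -0.22 and 0.14. Whether MYC acts on these genes was not tested. The windows printed are those of the members with the lowest log2 ratios, SRSF1 (chr17:58007197-58007496, minus strand) and SRSF6 (chr20:43457646-43457945, plus strand), and of HNRNPH2 (chrX:101407972-101408271, plus strand), the 1 window that holds more than 1 E-box. They are from RefSeq, GRCh38.p14, with the E-box in capitals.
SRSF1: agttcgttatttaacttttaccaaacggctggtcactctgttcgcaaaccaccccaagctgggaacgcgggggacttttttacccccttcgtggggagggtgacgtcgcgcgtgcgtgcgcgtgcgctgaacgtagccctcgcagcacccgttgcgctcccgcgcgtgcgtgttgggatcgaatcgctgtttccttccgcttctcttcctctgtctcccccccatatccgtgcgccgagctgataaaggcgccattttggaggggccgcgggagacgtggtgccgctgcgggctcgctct
SRSF6: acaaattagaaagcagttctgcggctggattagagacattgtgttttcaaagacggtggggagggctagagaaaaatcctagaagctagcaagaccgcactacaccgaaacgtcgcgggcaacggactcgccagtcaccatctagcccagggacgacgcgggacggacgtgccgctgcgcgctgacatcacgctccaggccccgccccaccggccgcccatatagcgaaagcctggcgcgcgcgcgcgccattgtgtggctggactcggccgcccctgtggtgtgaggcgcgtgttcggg
HNRNPH2: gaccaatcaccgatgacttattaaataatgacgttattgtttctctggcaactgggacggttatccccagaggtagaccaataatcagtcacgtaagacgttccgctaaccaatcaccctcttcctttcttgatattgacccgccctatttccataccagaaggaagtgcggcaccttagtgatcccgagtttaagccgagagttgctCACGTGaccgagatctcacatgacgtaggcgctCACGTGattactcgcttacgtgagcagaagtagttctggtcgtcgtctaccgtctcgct
A match is a description of letters and says nothing of binding. HNRNPH2, with 2 of them, was at 37.2 FPKM in DOX(-) against 38.1 in DOX(+).

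The HNRNP genes are taken next by protein group. In the A and B group, HNRNPA2B1, a binder of nascent and transported RNA, was at 79.3 FPKM in DOX(-) against 78.8 in DOX(+). HNRNPAB was at 53.6 FPKM in DOX(-) against 60.1 in DOX(+). Both intervals included equal levels on the shortest transcript, though that of HNRNPAB on the longest, 0.834 to 0.952, did not. HNRNPA3 was at 74.3 FPKM in DOX(-) against 85.7 in DOX(+), with an interval of 0.787 to 0.952. HNRNPA0, a binder of AU-rich mRNA, was at 26.5 FPKM in DOX(-) against 30.9 in DOX(+), with a narrow interval of 0.821 to 0.894 that rests on 3833 and 4998 fragments. Both genes were thus lower in DOX(-) beyond counting error, by less than 5 to 4.

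The F and H group binds runs of G. HNRNPF was at 69.7 FPKM in DOX(-) against 77.1 in DOX(+), with an interval of 0.819 to 0.998 that barely left out 1. HNRNPH1 was at 8.12 FPKM in DOX(-) against 9.26 in DOX(+), and HNRNPH3 at 20.7 FPKM in DOX(-) against 24.3 in DOX(+). HNRNPF, HNRNPH1, HNRNPH3 and HNRNPH2 all had ratios below 1, the last by 0.978 only. HNRNPD, a factor in decay of AU-rich mRNA, was at 33.4 FPKM in DOX(-) against 30.3 in DOX(+). Its paralog HNRNPDL was at 24.9 FPKM in DOX(-) against 29.3 in DOX(+), with an interval of 0.755 to 0.962. The paralogs lie 48.1 kb apart on chromosome 4 and had ratios on opposite sides of 1, with intervals that overlapped.

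HNRNPK, which binds C-rich RNA through KH domains, had the highest level of any HNRNP gene other than a retrocopy, at 94.04 FPKM in DOX(-) against 111.2 in DOX(+), and an interval of 0.772 to 0.927. HNRNPC, which binds runs of U, had the highest log2 ratio of all members. The gene (ENSG00000092199, chromosome 14, 21209136 to 21269494, minus strand) was at 26.2 FPKM in DOX(-) against 20.99 in DOX(+), a log2 ratio of 0.31 with an interval of 1.03 to 1.52 for the ratio. HNRNPL, a binder of CA repeats, was at 30.8 FPKM in DOX(-) against 27.2 in DOX(+). HNRNPL shares exon sequence on its strand with AC008982.1, which was at 4.82 FPKM in DOX(-) against 9.25 in DOX(+), so the division of fragments between them is uncertain.

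HNRNPU, the scaffold attachment factor of the nucleus, was at 10.2 FPKM in DOX(-) against 12.5 in DOX(+), the lowest log2 ratio of the HNRNP genes at -0.27. Its interval of 0.561 to 1.16 included equal levels, and that on its longest transcript, 0.772 to 0.862, did not. The related HNRNPUL1 was at 48.3 FPKM in DOX(-) against 44.6 in DOX(+), and HNRNPUL2 at 35.96 FPKM in DOX(-) against 32.7 in DOX(+). HNRNPUL1 shares exon positions with TGFB1 on the other strand, which was at 108.9 FPKM in DOX(-) against 95.6 in DOX(+), and it is not stated whether the counting used strand. HNRNPM was at 38.2 FPKM in DOX(-) against 40.6 in DOX(+), and HNRNPR at 19.4 FPKM in DOX(-) against 22.9 in DOX(+). Both intervals included equal levels on the shortest transcript. On the longest, that of HNRNPR, 0.802 to 0.892, left them out and that of HNRNPM did not. HNRNPLL, a regulator of CD45 splicing in lymphocytes, was below the filter at 0.377 FPKM in DOX(-) against 0.403 in DOX(+), about the value of 3 fragments on its shortest transcript.

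HNRNPA1, usually among the most abundant of the family and an opponent of SRSF1 at shared exons, was listed at only 16.3 FPKM in DOX(-) against 15.04 in DOX(+). The gene (ENSG00000135486, chromosome 12, 54280193 to 54287088, plus strand) had a ratio of 1.09 with an interval of 0.811 to 1.45. Its intronless copies were listed far higher. The pseudogene HNRNPA1P7 was at 292.1 FPKM in DOX(-) against 264.8 in DOX(+), HNRNPA1P10 at 193.9 FPKM in DOX(-) against 182.2 in DOX(+), and HNRNPA1P48, which the table types as protein-coding and which is therefore a member, at 169.2 FPKM in DOX(-) against 152.9 in DOX(+). The ratios of these 3 copies, 1.10, 1.06 and 1.11, were close to that of the gene. HNRNPA1L2, another retrocopy typed as protein-coding, was at 8.31 FPKM in DOX(-) against 9.31 in DOX(+).

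Over their lengths the 3 highest copies differ little from the mRNA. HNRNPA1P7 matched the closest HNRNPA1 transcript at 99.1% of 963 bases, HNRNPA1P10 at 99.5% of 962 bases and HNRNPA1P48 at 98.3% of 1377 bases. A stretch of 60 coding bases shows the join of HNRNPA1 exons 2 and 3, which lie apart in the gene (chr12:54281473-54281824, plus strand) and run together in HNRNPA1P7 (chr18:32413015-32413074, minus strand), HNRNPA1P10 (chr19:11666869-11666928, minus strand) and HNRNPA1P48 (chr16:51645920-51645979, plus strand). Sequences are from GENCODE release 29, GRCh38, written along the transcript, and capitals mark bases that differ from HNRNPA1.
HNRNPA1: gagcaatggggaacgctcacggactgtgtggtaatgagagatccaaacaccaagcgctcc
HNRNPA1P7: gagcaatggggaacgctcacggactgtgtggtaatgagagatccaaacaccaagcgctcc
HNRNPA1P10: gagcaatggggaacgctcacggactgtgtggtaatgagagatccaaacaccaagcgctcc
HNRNPA1P48: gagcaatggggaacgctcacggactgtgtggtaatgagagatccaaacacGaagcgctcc
In this window the copies differ from HNRNPA1 at no more than 1 of 60 bases, and fragments from such stretches can be assigned to the gene or to a copy. How the authors' tools assigned them is not stated. The listed values came to whole fragments within rounding, 4663 in DOX(-) and 4723 in DOX(+) for HNRNPA1P7, and 3093 and 3246 for HNRNPA1P10.

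Other HNRNP genes also had copies listed at high levels. The table lists 132 retrocopies and pseudogenes of the members by symbol, and 26 of these, of 7 parent genes, reached 1 FPKM. Giving each gene as many fragments as its longest transcript allows, the 76 listed copies of HNRNPA1 still took 91.5% of the fragments of gene and copies in DOX(-) and 91.5% in DOX(+), with exact binomial intervals of 91.1% to 92.01% and 91.1% to 92.0%. These intervals treat each fragment as separate and cover counting error only. How fragments were assigned, and whether any was counted in more than 1 row, was not tested and is not in their width. For HNRNPC the share was 64.3% in DOX(-) and 68.7% in DOX(+), and for HNRNPA3 it was 63.4% in DOX(-) and 61.1% in DOX(+). Copies of HNRNPL took 50.3% in DOX(-) and 45.4% in DOX(+), and copies of HNRNPK 37.0% in DOX(-) and 31.7% in DOX(+). HNRNPR and HNRNPU had small shares, of 7.46% and 3.78% in DOX(-) and 6.73% and 3.16% in DOX(+). Only 3 SRSF pseudogenes were found by the same symbols, and 0 of them reached 1 FPKM.

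**Figure D3:**
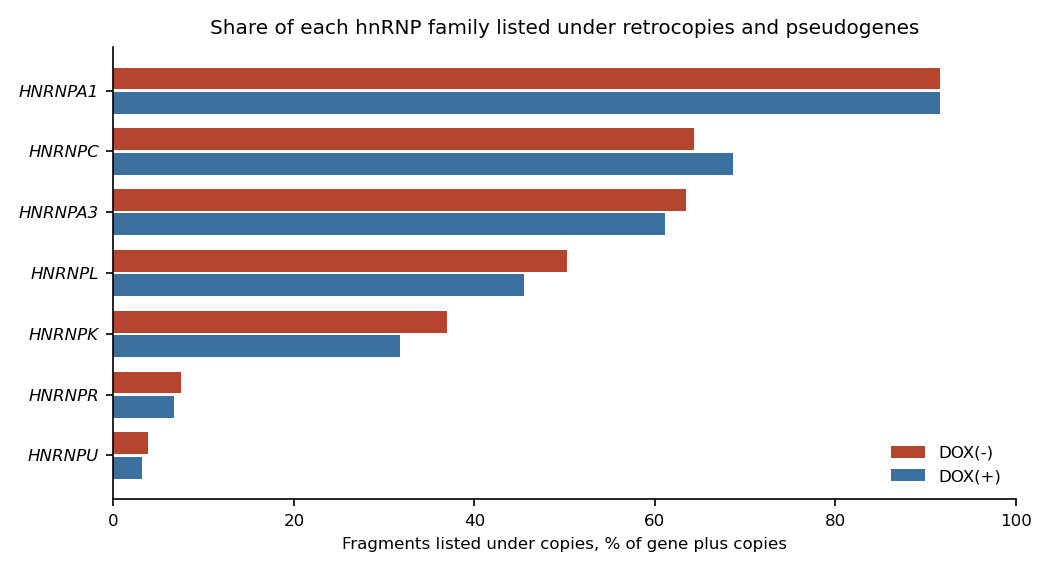
Fragments listed under retrocopies and pseudogenes, as a percent of gene plus copies, for the 7 HNRNP genes with a copy at 1 FPKM or more, DOX(-) above DOX(+) in each pair of bars. The bars run from 91.5% for HNRNPA1 down to 3.78% in DOX(-) and 3.16% in DOX(+) for HNRNPU.

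The highest single copy was HNRNPA3P6, at 575.9 FPKM in DOX(-) against 588.8 in DOX(+), with 94.2% identity to its parent mRNA. HNRNPA3P5 was at 127.8 FPKM in DOX(-) against 142.5 in DOX(+), HNRNPCP2 at 204.3 FPKM in DOX(-) against 199.5 in DOX(+), and HNRNPKP4 at 115.9 FPKM in DOX(-) against 107.6 in DOX(+). In plain FPKM each of these copies stood above its own parent gene in both libraries, except HNRNPKP4, which was above HNRNPK in DOX(-) and below it in DOX(+). HNRNPLP2, typed as an unprocessed pseudogene, matched an HNRNPL transcript at 96.7% over all of its 1570 bases. It was at 59.6 FPKM in DOX(-) against 43.2 in DOX(+), a ratio of 1.38 with an interval of 1.28 to 1.49. Lower copies included HNRNPA3P10 (25.5 FPKM in DOX(-), 29.4 FPKM in DOX(+)), HNRNPCP3 (31.8 FPKM in DOX(-), 29.8 FPKM in DOX(+)) and HNRNPUP1 (15.8 FPKM in DOX(-), 16.1 FPKM in DOX(+)). The member HNRNPCL1, a retrocopy of HNRNPC, was at 2.67 FPKM in DOX(-) against 2.095 in DOX(+), and HNRNPCL2, HNRNPCL3 and HNRNPCL4 were listed at 0 in both. The low copies HNRNPRP1, HNRNPLP1, HNRNPCP1, HNRNPKP2, HNRNPA1P16, HNRNPA1P4, HNRNPA1P30, HNRNPA1P35, HNRNPA1P39, HNRNPA3P1, HNRNPA3P3, HNRNPA3P4 and HNRNPA3P12 lay between 1.04 and 7.05 FPKM in DOX(-). Of these 13, HNRNPCP1 alone had an interval without 1, of 0.340 to 0.975.

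Where much of a family is listed under copies, the ratio depends on which rows are read. The intervals of copies and of sums cover counting error only, not how fragments were assigned. HNRNPK had a ratio of 0.846 and its copies together 1.07, with an interval of 1.02 to 1.13, so gene and copies differed in opposite directions. Summed, gene and copies gave 0.917, or 1.01 when the gene was given the fragments of its shortest transcript. HNRNPC had 1.248 and its copies 1.03 (0.982 to 1.08), with a sum of 1.10 (1.06 to 1.14), or 1.04 on the gene's shortest transcript. HNRNPL had 1.13 and its copies 1.38 (1.28 to 1.48), with a sum of 1.24 (1.18 to 1.31), or 1.34 on the gene's shortest transcript. For HNRNPA1 the gene, the copies and the sum all gave 1.09. HNRNPA3 gave 0.867, its copies 0.959 (0.936 to 0.982) and the sum 0.923, each below 1.

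**Figure D4:**
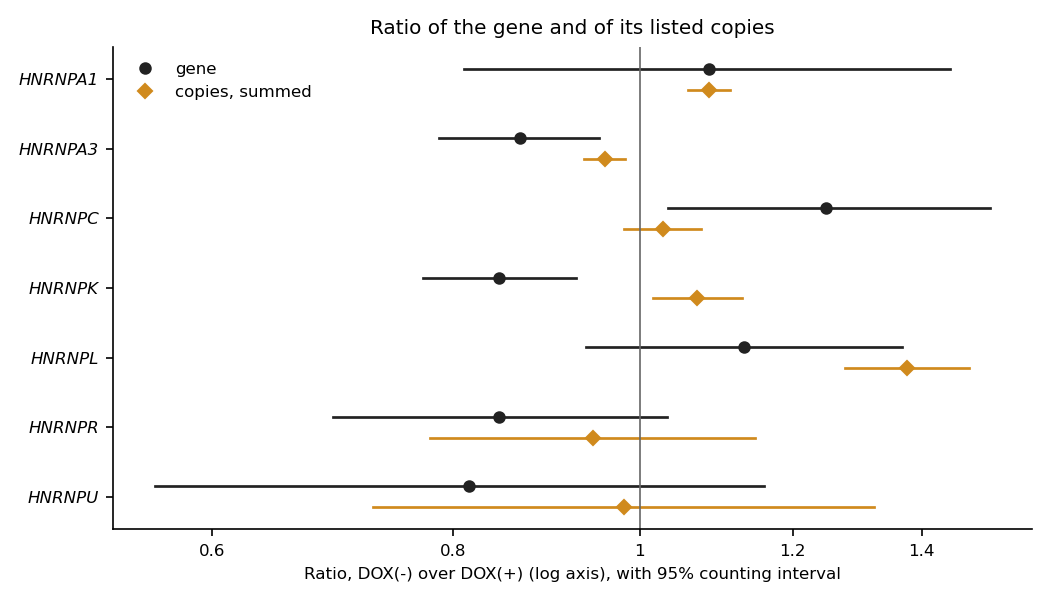
Ratio of DOX(-) over DOX(+) on a log axis for each HNRNP gene (black circle) and for the summed fragments of its listed copies (orange diamond), with 95% counting intervals as lines. The pair lies on opposite sides of 1 for HNRNPK (0.846 and 1.07) and at the same place for HNRNPA1 (1.09 and 1.09).

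Other splicing genes were read by lists beside the members. No list shows more than a description of 1 library against 1. Among 27 SR-related proteins, 23 had a log2 ratio below 0 and 4 above, beside 54.1% of protein-coding genes below 0, with a median of -0.27 and 0 genes at 1.5-fold in either direction. BCLAF1, a nuclear protein rich in arginine and serine, was at 4.28 FPKM in DOX(-) against 6.85 in DOX(+), LUC7L3, a relative of a yeast factor of the first snRNP to bind, at 3.03 FPKM in DOX(-) against 4.86 in DOX(+), and LUC7L at 1.44 FPKM in DOX(-) against 2.50 in DOX(+). The intervals of LUC7L3 and LUC7L, 0.256 to 1.418 and 0.234 to 1.2504, included 1, and that of BCLAF1, 0.407 to 0.951, did not. The list median lay farther below 0 than that of the SRSF genes.

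Of 15 genes of nonsense-mediated decay and the exon junction, the machinery that removes the decay isoforms of SR genes, 13 were below 0, beside 54.1% of protein-coding genes, and 2 were 1.5-fold lower in DOX(-), beside 2.98% of protein-coding genes. These were RBM8A, an exon junction core protein (10.4 FPKM in DOX(-) against 17.9 in DOX(+)), and UPF3B, a bridge to that complex (2.67 FPKM in DOX(-) against 4.71 in DOX(+)). UPF2 was at 8.02 FPKM in DOX(-) against 12.1 in DOX(+), within 1.5-fold on the log2 scale. The list median was -0.14.

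Kinases and phosphatases that act on SR proteins had no gene at 1.5-fold among 11 tested. Their median was -0.12, and the widest differences were those of the kinase PRPF4B (5.34 FPKM in DOX(-) against 7.24 in DOX(+)), PPP1CB (12.5 FPKM in DOX(-) against 16.4 in DOX(+)) and PPP1R10 (12.7 FPKM in DOX(-) against 15.6 in DOX(+)). Each of the 3 intervals included 1. Importins and arginine methyltransferases had a median of 0.03 over 6 genes, with TNPO1, an importin of hnRNP proteins, at 22.6 FPKM in DOX(-) against 27.4 in DOX(+), and PRMT1, a methyltransferase of their RGG repeats, at 53.8 FPKM in DOX(-) against 44.98 in DOX(+). PRMT5 was at 14.7 FPKM in DOX(-) against 14.1 in DOX(+).

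Of 18 tested genes listed as hnRNP proteins with other symbols, 1 was 1.5-fold higher. That list also held other RNA-binding proteins, among them MBNL1, CELF1 and ELAVL1. The higher gene was RALY, a relative of HNRNPC, at 22.9 FPKM in DOX(-) against 12.8 in DOX(+), and the list median was -0.06. Beside the 2.36% of protein-coding genes that were 1.5-fold higher, 1 of 18 is a count too small to read. RBM3, a cold-induced protein, was at 25.7 FPKM in DOX(-) against 34.05 in DOX(+), and the splicing regulator MBNL1 at 14.6 FPKM in DOX(-) against 19.2 in DOX(+). Of 21 Sm and U1 or U2 snRNP proteins, 1 was 1.5-fold higher, the Sm protein gene SNRPD2, at 36.1 FPKM in DOX(-) against 16.3 in DOX(+), and the median was 0.01. The same background of 2.36% applies to that count. SF3B2 and SNRPA were at 30.8 and 17.2 FPKM in DOX(-) and at 25.6 and 14.5 FPKM in DOX(+). Of 17 proteins of U5, the tri-snRNP and PRP19, 0 were at 1.5-fold, with a median of -0.02. CDC5L was at 25.7 FPKM in DOX(-) against 35.2 in DOX(+), BCAS2 at 16.7 FPKM in DOX(-) against 20.9 in DOX(+), and PRPF8, the largest protein of the spliceosome core, at 92.2 FPKM in DOX(-) against 76.6 in DOX(+).

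**Figure D5:**
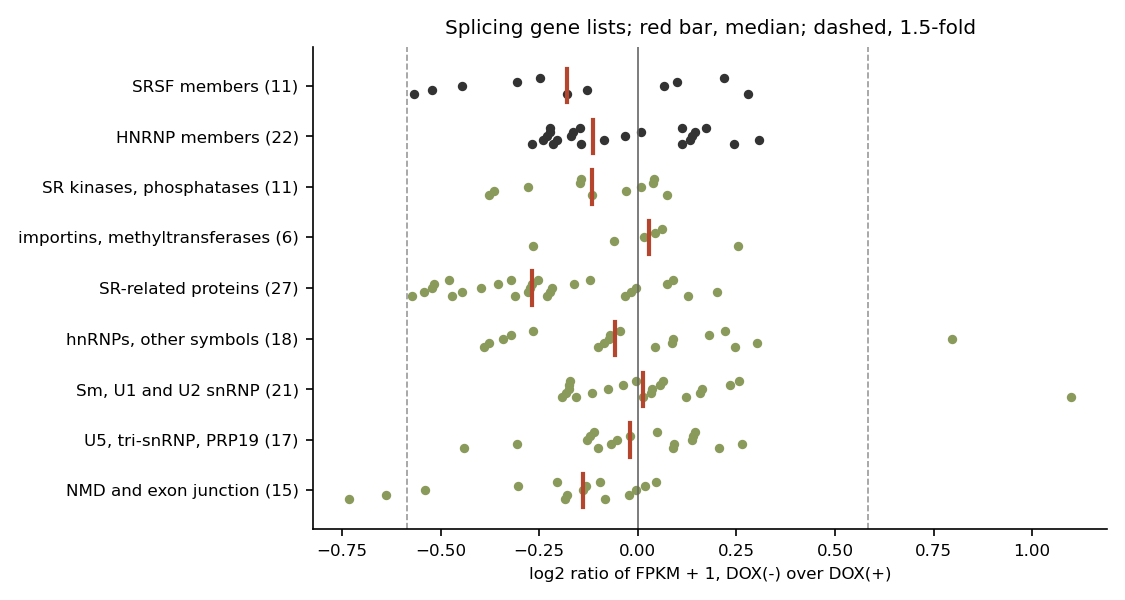
Log2 ratio of FPKM + 1, DOX(-) over DOX(+), for each tested gene (points) of the SRSF and HNRNP genes and of 7 other splicing lists, with the number of genes in brackets, the list median as a red bar and 1.5-fold as dashed lines. The SR-related proteins have the lowest median, -0.27, and the points beyond the dashed lines are SNRPD2, RALY, RBM8A and UPF3B.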

How the data were processed

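Each gene has 1 deposited FPKM value for DOX(-) and 1 for DOX(+), as the authors' column headers state. HISAT2 2.1.0, StringTie 1.3.4b, CASAVA 1.8 and GRCh38 appear, without roles, in the submitters' processing notes. Annotation release, strand setting and the treatment of fragments with several matches are not given in the sources used here. FPKM was compared as log2(FPKM + 1), DOX(-) minus DOX(+), for genes that reached 1 FPKM in DOX(-) or DOX(+). The offset pulls ratios of low genes towards 0. Transcript lengths, exons and copies came from GENCODE release 29, in which 34 of the 38 members had the same locus.

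Depth was recovered from genes with 1 annotated transcript: 99.5% of 5591 values in DOX(-) and 99.6% of 5976 in DOX(+), up to 100 fragments, were whole within 0.02 fragment. Counting intervals are exact conditional 95% intervals (Clopper-Pearson, scipy 1.17.1) on fragments from FPKM and the shortest transcript. They cover counting error only, since PCR copies count as fragments. Gene FPKM with several transcripts also depends on how fragments were divided between them, which was not tested. The size rule, the counting intervals and the recovery of depth were tried on simulated counts, drawn on the longest transcripts with counting error only. Those counts held no fragments shared between transcripts, genes or copies, so the simulation says nothing of that source of error. All members are named, and from each of 8 related lists the 3 genes with the largest absolute log2 ratio at 2 FPKM or more, and copies at 1 FPKM or more. Members and lists were chosen with earlier results of these data known. Alternatives covered the pseudocount, filter, scaling, size rule, overlaps and transcript length. A further sequence window is not reported here.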

Additional observations from a re-analysis of the deposited data

How the results depend on the processing

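No paired analysis was possible because each condition is 1 library and the labels carry no replicate numbers. The count of 0 members at 1.5-fold in either direction was unchanged under the other pseudocounts and filters, median-of-ratios and trimmed-mean scaling, a 2-fold rule, members free of overlap and, chosen after seeing the data, without retrocopies. Only the pseudocount of 0.1 FPKM, the lack of a filter and the scalings could have raised it. A 2-fold rule, a pseudocount of 5 FPKM and subsets of the members cannot raise a count of 0. Scaling to the sum of nuclear protein-coding genes gave 1 lower (SRSF6), and a rule of 5 to 4 on FPKM + 1 gave 3 lower and 0 higher. Counted by interval, 8 were lower and 2 higher on the shortest transcripts, and 15 lower and 8 higher on the longest, since more fragments narrow the intervals. The share of all genes was not counted on the longest transcripts, so the latter counts have no background and are a description only. All medians stayed below 0 but some moved by over 1.5 times: with no filter to -0.06 over all members and -0.03 over HNRNP genes, and with a pseudocount of 5 FPKM to -0.10 over SRSF genes. Of 172 member values under other settings, 0 moved beyond the counting interval on the shortest transcript, the widest choice. The sign turned for HNRNPA2B1, to -0.03 under the nuclear scaling. The 172 include sums of gene and copies on the longest transcript of the gene only. Against the gene's interval on that longest transcript, the sums lay outside for HNRNPC (1.10 against 1.17 to 1.33) and HNRNPK (0.917 against 0.814 to 0.879). They also lay outside for HNRNPA3 (0.923 against 0.840 to 0.894) and HNRNPL (1.24 against 1.06 to 1.22). The sums of HNRNPA1, HNRNPR and HNRNPU lay within it. On the shortest transcript of HNRNPK its sum gave 1.01, outside the gene's interval of 0.772 to 0.927. For SRSF10, SRSF11, SRSF5, SRSF4, HNRNPH1 and HNRNPCL1 the intervals on the shortest transcript rest on under 60 fragments per library. HNRNPCL1 has 1 annotated transcript. For the others the count depends on the transcript chosen, and on the longest it lay between 267 (SRSF5) and 1524 (SRSF4) in DOX(-). That 1 library stands for each condition limits every ratio.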

Other observations

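Other rows share sequence positions with members and are given as values. The readthrough RPL36A-HNRNPH2 was at 1.07 FPKM in DOX(-) against 1.01 in DOX(+), and HNRNPUL2-BSCL2 at 0.121 FPKM in DOX(-) against 0.364 in DOX(+). On the other strand, CBX3, which overlaps HNRNPA2B1, was at 10.6 FPKM in DOX(-) against 13.5 in DOX(+). GATC, which overlaps SRSF9, was at 14.6 FPKM in DOX(-) against 14.5 in DOX(+), and COX20, which overlaps HNRNPU, at 3.69 FPKM in DOX(-) against 4.73 in DOX(+). HNRNPLL and SRSF7 lie 140.01 kb apart on chromosome 2, HNRNPLL below 1 FPKM and SRSF7 above 17 FPKM in both libraries.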
